A study of Mus musculus with 5 samples.

Results

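Lung fibrosis is driven by secreted factors that act on fibroblasts, epithelium and vessels, and 10 genes of this kind were followed here: the TGF-β ligands *Tgfb1*, *Tgfb2* and *Tgfb3*, the TGF-β receptors *Tgfbr1* and *Tgfbr2*, the platelet-derived growth factors *Pdgfa*, *Pdgfb* and *Pdgfc*, the insulin-like growth factor *Igf1* and the vascular growth factor *Vegfa*. They were taken by symbol from the 28693 features of the count matrices, 8 as growth factors and 2 as receptors, whatever their level. The question was which cell of the injured lung carries the transcript of each factor, and at which time. The lungs came from adult *Ms4a3-CreER;R26-tdT* mice, in which tamoxifen marks cells that express *Ms4a3*, a gene of monocyte and granulocyte progenitors, and their progeny with the reporter tdT. There were 5 libraries, 1 from lungs given PBS and 1 each from lungs collected 3, 7, 14 and 28 days after bleomycin, a drug that injures the lung epithelium and leads to fibrosis. All 5 shared the genotype, so every group carried the Cre driver and the reporter, and all were prepared as immune cells, so that epithelial, endothelial and mesenchymal cells are those that came along. The sources used here do not say how many mice made up a library.

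Total UMIs per library ranged from 89769386 to 167506186, and 44772 of 52800 barcodes passed the filters, between 7757 and 10280 per library with median depths of 9260 to 14254 UMIs. The day 7 library stood apart at its lower end: its shallowest barcode held 4624 UMIs, against 500 to 502 in the others. A count of 226 barcode sequences occurred in 2 libraries. Cells were assigned to 18 classes from marker genes that include none of the 10 members, and each class is named by its markers with "-like". The 11802 alveolar macrophage (AM)-like cells were led by *Krt79*, *Marco*, *Car4* and *Ear1*, and the 4820 interstitial macrophage (IM)-like cells by *C1qa*, *C1qc*, *C1qb*, *Pf4* and *Apoe*. AM-like cells numbered 5549 in the PBS library and 582, 1409, 1347 and 2915 at days 3, 7, 14 and 28. The IM-like class held only 43 cells in the PBS library and 672 to 1535 after bleomycin. At day 3 its cells lay in other clusters: when all cells were clustered (Leiden method), 90.0% of its cells lay in the classical monocyte cluster and 8.93% in IM clusters, against 76.5% to 96.8% in IM clusters in the other libraries, and its summed classical monocyte markers were at 3608 CPM, against 172 to 856 CPM. The part of this in the day 3 values of IM-like cells was not tested, and their ratios to PBS are therefore also given for the cells of the IM clusters, which number 100, 93, 2155, 1613 and 2283. Structural classes were small, with 46 to 125 fibroblast-like, 22 to 95 endothelial-like and 17 to 304 epithelial-like cells per library. The fibroblast-like gate was drawn for fibroblasts and other mesenchymal cells, so this class can mix them. Levels are CPM, the UMIs of a gene scaled to a fixed total of UMIs of its class in a library, with exact 95% Poisson intervals that cover counting error only. With 1 library per time point no test between time points exists, and a summed level does not tell fewer transcripts per cell from fewer cells that carry them.

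TGF-β ligands are secreted in a latent form, held by a propeptide and by binding proteins of the matrix, and act once integrins, proteases or thrombospondin release them. The active dimer binds the type II receptor TGFBR2, which phosphorylates the type I receptor TGFBR1, and SMAD2 and SMAD3 carry the signal to the nucleus, where in fibroblasts it drives matrix genes. PDGF dimers act on the receptor kinases PDGFRα and PDGFRβ of fibroblasts and pericytes, IGF1 promotes the growth and survival of mesenchymal and epithelial cells, and VEGFA maintains the lung endothelium. Macrophages are known sources of several of these factors in scarring tissue.

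All 10 genes are protein coding. In the GENCODE annotation of GRCm38 they lie at chr7:25687002-25705077 on the plus strand (*Tgfb1*), chr1:186622792-186705989 minus (*Tgfb2*), chr12:86056745-86079041 minus (*Tgfb3*), chr4:47353222-47414931 plus (*Tgfbr1*), chr9:116084293-116175360 minus (*Tgfbr2*), chr5:138976014-138997370 minus (*Pdgfa*), chr15:79995874-80014977 minus (*Pdgfb*), chr3:81036416-81214040 plus (*Pdgfc*), chr10:87858265-87937042 plus (*Igf1*) and chr17:46016993-46032369 minus (*Vegfa*). RefSeq windows for GRCm38.p6 were at hand for 8 of the 10. For 3 genes the 250 bases before the gene start are shown because their levels divide the classes in opposite ways: *Tgfbr2* and *Pdgfc* were higher in AM-like than in monocyte-like, endothelial-like and epithelial-like cells, and *Vegfa* was lower. They read 5′ to 3′ on the gene's strand. Capitals mark 2 short motifs searched on both strands, the PU.1 core GAGGAA or its complement TTCCTC (PU.1 is the transcription factor of the macrophage lineage) and the GC box GGGCGG or its complement CCGCCC.
Tgfbr2 (chr9:116175364-116175613, minus): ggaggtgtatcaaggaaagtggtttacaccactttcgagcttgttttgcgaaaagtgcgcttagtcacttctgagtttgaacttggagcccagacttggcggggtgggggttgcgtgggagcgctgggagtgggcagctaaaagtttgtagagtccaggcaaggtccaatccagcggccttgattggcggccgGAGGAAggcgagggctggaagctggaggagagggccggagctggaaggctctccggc
Pdgfc (chr3:81036166-81036415, plus): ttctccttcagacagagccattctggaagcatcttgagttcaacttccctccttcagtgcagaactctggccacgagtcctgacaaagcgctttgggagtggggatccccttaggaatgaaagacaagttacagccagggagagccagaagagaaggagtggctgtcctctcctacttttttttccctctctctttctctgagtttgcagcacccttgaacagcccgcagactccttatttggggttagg
Vegfa (chr17:46032378-46032627, minus): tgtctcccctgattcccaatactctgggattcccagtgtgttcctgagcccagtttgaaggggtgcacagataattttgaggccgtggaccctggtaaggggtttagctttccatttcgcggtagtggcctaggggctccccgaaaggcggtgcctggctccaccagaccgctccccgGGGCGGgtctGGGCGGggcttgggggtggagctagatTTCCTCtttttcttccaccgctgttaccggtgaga
The *Tgfbr2* window held 1 PU.1 core and no GC box, the *Pdgfc* window neither, and the *Vegfa* window 1 PU.1 core and 2 GC boxes. *Tgfbr1* was also called higher in AM-like than in classical monocyte-like, endothelial-like and epithelial-like cells. Its window, not printed, held 2 GC boxes and no PU.1 core. The *Tgfb1* window, not printed either, held 5 GC boxes and no PU.1 core. These few windows cannot show whether a motif goes with a level, and this was not tested. Among 32851 RefSeq windows of the same length, 23.3% held the PU.1 core and 32.7% the GC box, so both motifs are common in such windows.

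The leading class differed between groups of genes when levels were averaged over the libraries, each library with equal weight. Fibroblast-like cells led for *Tgfb2*, *Tgfb3*, *Tgfbr2*, *Pdgfa* and *Igf1*, endothelial-like cells for *Pdgfb* and *Vegfa*, nonclassical monocyte-like cells for *Tgfb1* and *Tgfbr1*, and IM-like cells for *Pdgfc*. AM-like cells were the lowest of the classes for *Pdgfa*, at 2.23 ± 1.57 CPM (SD over 5 libraries), and for *Vegfa*, at 3.47 ± 2.53 CPM. The order between neighbours often lay within the spread. *Tgfbr1* stood at 173 ± 72.8 CPM in nonclassical monocyte-like, 171 ± 69.4 CPM in IM-like and 158 ± 36.7 CPM in AM-like cells, which did not differ beyond their SDs. The same held for *Pdgfc* in IM-like (29.9 ± 9.04 CPM) and AM-like cells (27.1 ± 6.12 CPM) and for *Pdgfa* in fibroblast-like (108 ± 102 CPM), epithelial-like (80.4 ± 42.2 CPM, n = 4) and IM-like cells (76.9 ± 9.86 CPM). It also held for *Igf1* in fibroblast-like (234 ± 124 CPM) and IM-like cells (193 ± 134 CPM). *Tgfbr2* in fibroblast-like (288 ± 77.2 CPM) and AM-like cells (251 ± 56.8 CPM) was a further case. So were *Tgfb1* in nonclassical (460 ± 168 CPM) and classical monocyte-like cells (388 ± 99.6 CPM, n = 4) and *Vegfa* in endothelial-like (180 ± 102 CPM) and epithelial-like cells (118 ± 116 CPM, n = 4). The SDs run over libraries of different time points and so include any change with time.

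**Figure D1:**
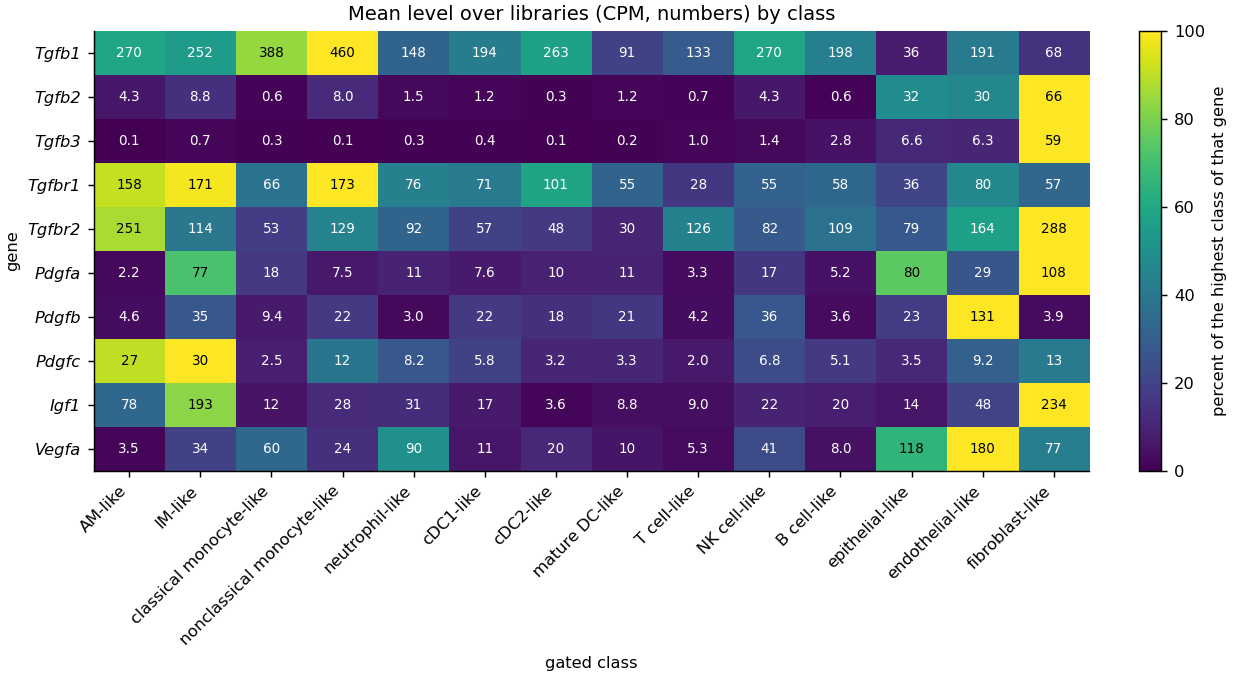
Mean level of each gene (rows) in each gated class (columns), averaged over the libraries with at least 20 cells of the class. Numbers are CPM and colour is the percent of the highest class of that gene, so colours compare classes within a row and not genes; *Tgfb3* is nearly limited in colour to fibroblast-like cells, and *Pdgfa* and *Vegfa* are darkest in AM-like cells.

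*Tgfb1*, the main TGF-β ligand of immune cells, was carried by nearly all leukocyte classes. In AM-like cells it was at 344 CPM in the PBS library and at 288, 241, 242 and 237 CPM at days 3, 7, 14 and 28. All 4 bleomycin libraries lay below the PBS library, and the day 28 level was 0.690 times that of PBS (95% interval 0.677 to 0.704). IM-like cells went from 358 CPM in PBS to 259, 234, 228 and 183 CPM, 0.512 times the PBS level at day 28, and the cells of the IM clusters 0.662 times at day 28 but 1.03 times at day 3. Nonclassical monocyte-like cells, the patrolling monocytes of vessels, stood at 709 CPM in PBS and at 541, 418, 300 and 332 CPM after bleomycin. These 3 gated classes thus had their highest *Tgfb1* level in the PBS library. NK cell-like cells differed, with 221 CPM in PBS, 467 CPM at day 3 and 204 to 233 CPM later, and the day 3 level was 2.11 times that of PBS (1.79 to 2.49). Classical monocyte-like cells were at 526, 358, 378 and 289 CPM in PBS and at days 3, 7 and 14. T cell-like cells lay between 105 and 161 CPM, neutrophil-like cells between 125 and 187 CPM and epithelial-like cells between 28.4 and 46.7 CPM. Of all *Tgfb1* UMIs of a library, AM-like cells held 83.6% in PBS, 10.9% at day 3 and 45.3% at day 28, and at day 3 classical monocyte-like cells held 25.0%. These shares follow the make-up of each library as well as the level per class: AM-like cells gave 79.9% of all UMIs in PBS, 10.6% at day 3 and 38.7% at day 28.

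*Tgfb2* and *Tgfb3*, the isoforms known from mesenchymal and epithelial tissue, were found in structural cells. *Tgfb3* stood at 104, 23.6, 51.1, 76.8 and 41.2 CPM in fibroblast-like cells of PBS and days 3, 7, 14 and 28, from 46, 21, 102, 35 and 26 UMIs. In AM-like cells only 6, 1, 6, 3 and 6 UMIs were counted, at most 0.232 CPM. The 2 classes did not overlap in any library. *Tgfb2* was at 54.3, 31.5, 123, 52.7 and 66.6 CPM in fibroblast-like cells, highest at day 7, and at 14.2, 36.6, 36.6 and 40.8 CPM in epithelial-like cells of PBS and days 7, 14 and 28. *Msln*, a marker of the fibroblast-like gate, was among the leading 10 genes of that class at day 7 alone. The part of the make-up of the class in the day 7 level was not tested. Endothelial-like cells had 2 to 11 *Tgfb2* UMIs per library, and AM-like cells lay between 1.74 and 8.22 CPM. In IM-like cells *Tgfb2* was at 25.9 CPM in PBS, from 14 UMIs, and at 3.15 to 7.68 CPM after bleomycin. The cells of the IM clusters were at 35.3 CPM in PBS, 50.5 CPM at day 3 and 2.91 to 4.20 CPM later, so the direction at day 3 depended on how the class was drawn.

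*Tgfbr1*, the type I receptor kinase, had its highest levels in macrophage-like and nonclassical monocyte-like cells. AM-like cells were at 121 CPM in PBS and at 125, 152, 202 and 188 CPM at days 3, 7, 14 and 28, which is 1.67 times the PBS level at day 14 and 1.55 times at day 28. In IM-like cells it went from 104 CPM in PBS to 152, 117, 214 and 269 CPM, and the day 28 level was 2.59 times that of PBS (2.00 to 3.44). The cells of the IM clusters were at 0.613, 1.35, 2.66 and 3.18 times PBS at days 3, 7, 14 and 28, so day 3 turned direction and the late libraries did not. The late libraries were thus the highest in both macrophage classes. T cell-like cells were the lowest class and were also highest at days 14 and 28, with 19.1, 16.7, 25.9, 41.2 and 38.4 CPM. Epithelial-like cells had 9.77 CPM in PBS and 37.8 to 49.4 CPM after bleomycin. *Tgfbr2*, the ligand-binding type II receptor, had its highest levels in fibroblast-like cells, with 208, 339, 219, 388 and 285 CPM, and in AM-like cells, with 260, 162, 244, 274 and 317 CPM. In AM-like cells its lowest level was at day 3 (0.622 times PBS) and its highest at day 28 (1.22 times). IM-like cells lay below AM-like cells in every library, with 174, 101, 92.9, 101 and 102 CPM. The cells of the IM clusters were at 102 CPM in PBS and at 1.04, 0.764, 0.966 and 1.12 times that level after bleomycin. Their interval lay below PBS at day 7 alone (0.655 to 0.895), so the lower level at the other times depended on how the class was drawn. The receptor pair was therefore unevenly present: AM-like cells were among the highest classes for both subunits, and fibroblast-like cells for *Tgfbr2* but not for *Tgfbr1* (25.9 to 110 CPM).

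*Pdgfa*, whose homodimer acts on PDGFRα, separated the macrophage classes most. IM-like cells were at 87.1 CPM in PBS and at 82.7, 79.1, 73.8 and 61.5 CPM at days 3, 7, 14 and 28 by the gates. The cells of the IM clusters stood at 14.1 CPM in PBS, from 24 UMIs, and at 51.6 to 66.4 CPM after bleomycin, so the PBS level depended on how the class was drawn. These clusters held 38 of the 43 gated PBS cells but fewer *Pdgfa* UMIs than the gated class. The gated PBS level thus rests in part on the few gated cells outside them. AM-like cells were at 0.328, 0.751, 3.21, 3.11 and 3.74 CPM, from 33, 7, 83, 110 and 226 UMIs. That is in the range of T cell-like cells (0 to 8.16 CPM), which serve here as background. After each cell was thinned to 2000 UMIs, 0.781% of AM-like, 12.4% of IM-like and 1.37% of T cell-like cells of day 7 had a *Pdgfa* UMI. Classical monocyte-like cells lay between the macrophages, at 2.88 CPM in PBS and 20.2 to 25.3 CPM at days 3, 7 and 14, and cells scored between IM and classical monocyte were at 46.2 and 51.1 CPM at days 3 and 7. Fibroblast-like cells had 276 CPM in PBS and 22.5, 55.6, 52.7 and 132 CPM after bleomycin, so their day 3 level was 0.0816 times that of PBS. Epithelial-like cells went from 24.0 CPM in PBS to 72.8, 108 and 117 CPM at days 7, 14 and 28. IM-like cells held 13.1% of a library's *Pdgfa* UMIs in PBS and 38.4% to 58.4% after bleomycin, where they gave 10.7% to 26.4% of all UMIs.

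*Pdgfb*, the ligand with which endothelium recruits pericytes, was led by endothelial-like cells, at 155, 253, 17.2, 83.4 and 148 CPM. The day 7 value rests on 22 cells and 6 UMIs. Those 22 cells were also the deepest of the class, with a median of 15269 UMIs against 1048 to 2213 in the other libraries, and *Lyve1*, a lymphatic gene, was among the leading 10 genes in that library alone. IM-like cells had 57.5 CPM in PBS and 39.1, 26.5, 22.2 and 32.1 CPM after bleomycin, NK cell-like cells 18.5 to 57.5 CPM and AM-like cells 3.11 to 6.03 CPM. The cells of the IM clusters were at 33.5 CPM in PBS and at 23.8, 24.5, 20.4 and 26.6 CPM after bleomycin. *Pdgfc*, a ligand that needs proteolytic cleavage before it binds PDGFRα, was present in both macrophage classes. AM-like cells were at 20.02, 21.8, 27.8, 34.0 and 32.0 CPM, and the day 14 level was 1.70 times that of PBS. IM-like cells were at 38.9, 16.3, 27.2, 37.2 and 30.1 CPM, so the classes overlapped, and the cells of the IM clusters at 12.9, 20.9, 20.8, 32.6 and 24.3 CPM. Classical monocyte-like (1.69 to 3.36 CPM) and T cell-like cells (0.390 to 5.45 CPM) lay below both, and fibroblast-like cells stood at 1.13 to 8.78 CPM until day 14 and at 39.6 CPM at day 28.

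*Igf1* varied between the libraries in both macrophage classes. AM-like cells were at 36.0 CPM in PBS and at 72.5, 92.3, 26.4 and 163 CPM at days 3, 7, 14 and 28, that is 2.01 (1.85 to 2.18), 2.56 (2.43 to 2.70), 0.733 (0.682 to 0.788) and 4.53 times (4.36 to 4.71) the PBS level. The course was not steady, since day 14 was the lowest library and day 28, at 6.18 times the day 14 level (5.78 to 6.62), the highest. IM-like cells were at 293, 44.5, 172, 92.6 and 364 CPM. They shared the dip at day 14 and the peak at day 28 with AM-like cells, but their day 3 level was 0.152 times that of PBS (0.126 to 0.183), whereas AM-like cells were higher at day 3 than in PBS. That contrast was not seen with clusters in place of gates: the cells of the IM clusters were at 59.4, 69.6, 98.9, 78.1 and 272 CPM, and their ratio to PBS was 1.17 at day 3 (0.891 to 1.54), 1.66 at day 7 (1.37 to 2.05), 1.31 at day 14 and 4.58 at day 28 (3.76 to 5.62). The gated PBS value rests on 43 cells and 158 UMIs. Of these cells 38 lay in the IM clusters, whose 100 PBS cells together held 101 *Igf1* UMIs. Part of the 158 UMIs thus came from the few gated cells outside these clusters. The intervals cover counting error and not such spread between cells.

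Fibroblast-like cells, a known source of IGF1, had *Igf1* at 138, 322, 232, 388 and 88.8 CPM, highest at day 14 where both macrophage classes were low and lowest at day 28 where both were high. In thinned cells the share with an *Igf1* UMI was 6.04%, 9.88%, 12.1%, 4.03% and 22.6% of AM-like cells and 35.9%, 6.42%, 21.1%, 15.5% and 41.9% of IM-like cells, in the same order of libraries. T cell-like cells, which should lack the transcript, had 0.464%, 0.388%, 1.78%, 0.841% and 3.31%, so the macrophage shares lay above this background in every library. Before thinning the shares were 30.1% and 66.4% of AM-like cells for PBS and day 28, where the median depths were 17010 and 18130 UMIs, and 1.14% and 5.82% of T cell-like cells, at 5530 and 3874.5 UMIs. Several other classes had their highest *Igf1* level at day 28: 95.6 CPM in neutrophil-like, 62.7 CPM in NK cell-like and 40.4 CPM in B cell-like cells, against 2.24, 1.35 and 4.75 CPM in PBS. In neutrophil-like cells the summed AM markers were at 10956 CPM and the summed IM markers at 3226 CPM in that library, against 4077 and 304 CPM in PBS, and the part of such transcripts in the *Igf1* values of these classes was not tested. Of all *Igf1* UMIs, AM-like cells held 90.2% in PBS and 15.1% to 34.1% later, and IM-like cells 3.93% in PBS and up to 50.6%, at day 14. These shares follow the make-up of each library as well, given above with *Tgfb1* for AM-like and with *Pdgfa* for IM-like cells. The 34.1% of AM-like cells, at day 28, lay below their share of all UMIs there. The 50.6% of IM-like cells lay above theirs.

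**Figure D2:**
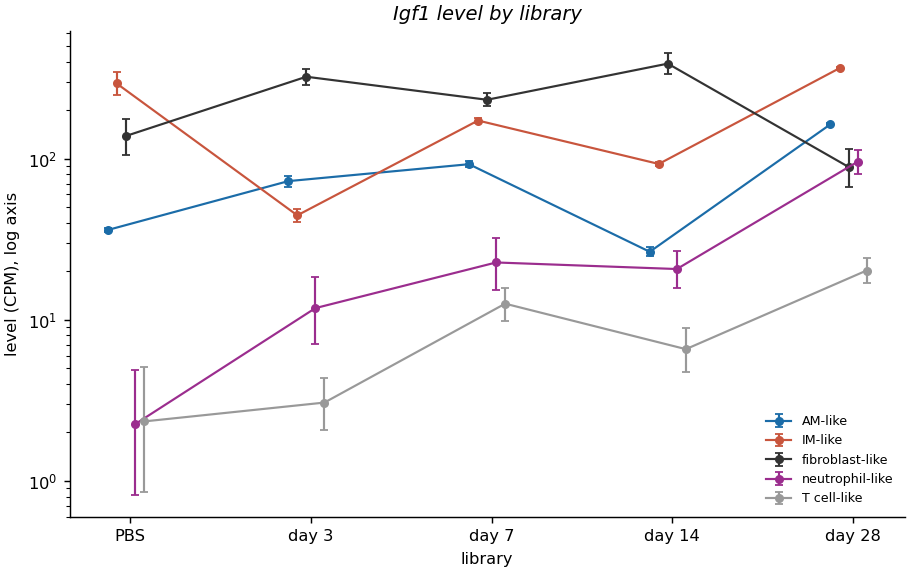
*Igf1* level (CPM, log axis) in the PBS library and at 4 times after bleomycin, for 5 classes. Points are summed counts of a class in 1 library and bars are exact 95% Poisson intervals; AM-like and IM-like cells both dip at day 14 and are highest at day 28, while fibroblast-like cells are highest at day 14.

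*Vegfa* was carried by endothelial-like, epithelial-like, neutrophil-like, fibroblast-like and classical monocyte-like cells. In epithelial-like cells it was at 15.1 CPM in PBS and at 50.8, 128 and 276 CPM at days 7, 14 and 28, and the last level was 18.3 times that of PBS (11.3 to 31.6). Epithelial CPM were set on a moving base: summed epithelial markers, with the secretory protein gene *Scgb1a1* among them, took 508763 CPM in PBS and 167219 to 243398 CPM later, and *Pdgfa*, *Tgfbr1* and *Tgfbr2* also stood at 3.04 to 7.41 times PBS in these cells. *Sftpc*, a marker of the epithelial-like gate, was among the leading 10 genes of the class at days 14 and 28, but not in PBS or at day 7. Median depth of the class was 12596.5 UMIs in PBS and 3638 UMIs at day 28. The parts of the moving base, the make-up of the class and depth in the *Vegfa* and other epithelial ratios were not tested. Endothelial-like cells were at 35.9 CPM in PBS, from only 3 UMIs, and at 109 to 266 CPM after bleomycin. Neutrophil-like cells were at 107, 112, 81.9, 110 and 40.2 CPM, and the day 28 level was 0.376 times that of PBS (0.279 to 0.501). IM-like cells had 20.4 CPM in PBS and 66.8, 34.5, 33.6 and 16.9 CPM after bleomycin, highest at day 3 (3.28 times PBS, 1.82 to 6.60), when classical monocyte-like cells were at 66.3 CPM and most IM-like cells lay in the monocyte cluster. The cells of the IM clusters were at 14.7 CPM in PBS and at 11.0, 25.1, 35.1 and 13.6 CPM after bleomycin, with no higher level at day 3 (0.749 times PBS, 0.390 to 1.42). AM-like cells never exceeded 6.33 CPM, within the range of T cell-like cells (0.780 to 11.7 CPM).

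**Figure D3:**
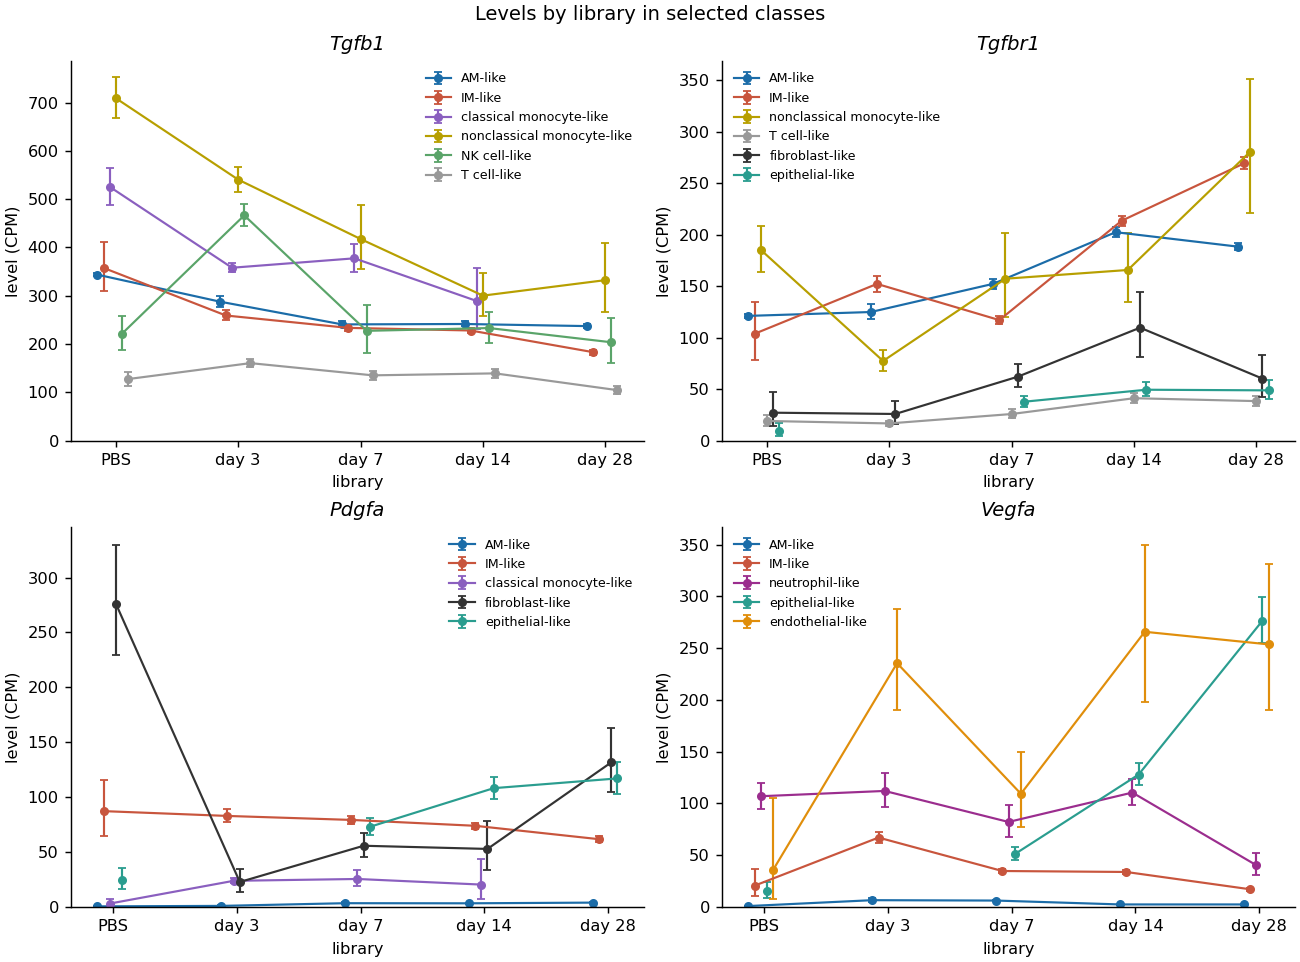
Levels (CPM, linear axes from 0) of *Tgfb1*, *Tgfbr1*, *Pdgfa* and *Vegfa* by library in selected classes, with exact 95% Poisson intervals as bars. *Tgfb1* is highest in the PBS library in AM-like, IM-like and both monocyte-like classes, *Pdgfa* runs near 0 in AM-like cells and between 61.5 and 87.1 CPM in IM-like cells, and *Vegfa* in epithelial-like cells reaches 276 CPM at day 28.

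Between the PBS library and each bleomycin library, a ratio of at least 2 in either direction was used to describe members that reached 20 CPM in either library. In AM-like cells 5 members qualified, and *Igf1* alone was past 2-fold, higher at days 3, 7 and 28, while no member was at day 14. Over all genes that qualified in AM-like cells, 7.45%, 3.59%, 6.18% and 7.0% were past 2-fold at days 3, 7, 14 and 28. In IM-like cells 9 members qualified, and 4, 2, 4 and 2 were past 2-fold, where all genes gave 21.3%, 12.5%, 16.6% and 19.8%. The members were *Tgfb2* at every time, *Igf1* at days 3 and 14, *Pdgfb* at days 7 and 14, *Tgfbr1* at days 14 and 28, and *Pdgfc* and *Vegfa* at day 3. Among these, *Tgfbr1* and *Vegfa* were higher after bleomycin and the others lower. With clusters in place of gates the lower level of *Tgfb2* at days 7, 14 and 28 and the higher level of *Tgfbr1* at days 14 and 28 were again past 2-fold, and the *Pdgfb*, *Vegfa* and *Pdgfc* entries and the lower *Igf1* levels were not. Past 2-fold there but not by the gates, all higher than PBS, were *Pdgfa* at all 4 times (3.65 to 4.70 times), *Pdgfc* (2.52 times) and *Vegfa* (2.38 times) at day 14 and *Igf1* at day 28.

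Classes were then compared within libraries, with edgeR on UMIs summed per class and library and the library as a block. The p-values are adjusted over all genes tested and measure how alike the difference between classes was over libraries of different time points, with 4 residual degrees of freedom (3 for classical monocyte-like and epithelial-like cells). IM-like cells differed from AM-like cells in 5 of 10 members, 4 higher and 1 lower, while 40.9% of all 13262 genes tested were called. *Pdgfa* was 40.8-fold higher in IM-like cells (log2 fold change 5.35 ± 0.53 SE, adjusted p = 0.000284, higher in 5 of 5 libraries). *Vegfa* was 11.0-fold higher (3.46 ± 0.29, adjusted p = 0.000153, 5 of 5) and *Pdgfb* 7.77-fold higher (2.96 ± 0.18, adjusted p = 5.17e-05, 5 of 5). *Tgfb3* was also called (2.49 ± 0.39, adjusted p = 0.00204, higher in 4 of 5) but at no more than 1.92 CPM in IM-like cells. *Tgfbr2* was 2.09-fold lower in IM-like cells (−1.06 ± 0.14, adjusted p = 0.000899, lower in 5 of 5). *Igf1* did not pass (1.35 ± 0.48, adjusted p = 0.0562, higher in 4 of 5), and day 3 was the library in the other direction; without it the difference was 1.85 with adjusted p = 0.00501. It also passed with DESeq2 (adjusted p = 0.00536), with all classes in 1 fit (0.0122), with Scrublet (0.0486), without the filter on low counts (0.0490) and at the 10% mitochondrial limit (0.0493), and over all alternatives the adjusted p ran up to 0.149. For *Tgfb1* (−0.03 ± 0.10, adjusted p = 0.859), *Tgfbr1* (0.16 ± 0.17, adjusted p = 0.478) and *Pdgfc* (0.15 ± 0.17, adjusted p = 0.509) the estimates were small, and their direction turned under at least 1 other processing. The median log2 fold change of the members was 0.99, against −0.02 over all genes tested.

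**Figure D4:**
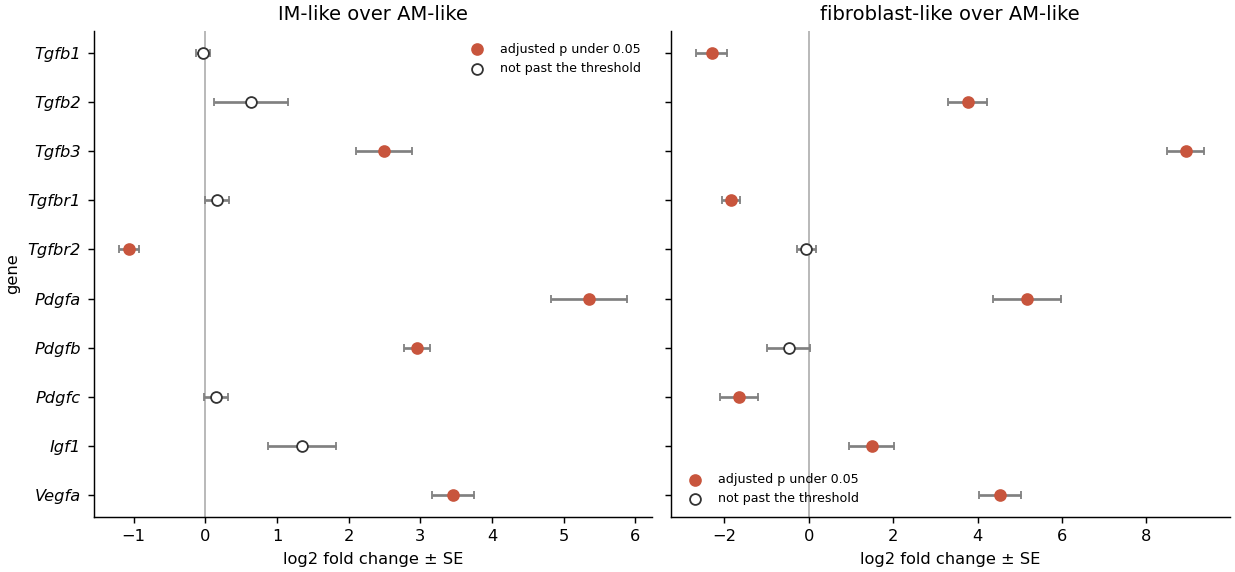
Log2 fold changes (points, ± SE) of the 10 members in IM-like over AM-like cells (left) and fibroblast-like over AM-like cells (right), from edgeR. Filled points passed an adjusted p of 0.05 and open points did not; *Pdgfa* and *Vegfa* lie to the right in both panels, and *Tgfbr2* is called in the left panel alone.

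Classical monocyte-like cells, the precursors of recruited macrophages, differed from AM-like cells in 9 of 9 members tested, 4 higher and 5 lower (31.7% of all genes tested were called). *Vegfa* (21.7-fold, 4.44 ± 0.50, adjusted p = 0.000143 with edgeR) and *Pdgfa* (11.2-fold, 3.49 ± 0.43, adjusted p = 0.00025) were higher in 4 of 4 libraries. *Pdgfc* (10.3-fold, −3.37 ± 0.30, adjusted p = 4.28e-05), *Igf1* (4.77-fold, −2.25 ± 0.32, adjusted p = 0.000588) and *Tgfbr2* (4.15-fold, −2.05 ± 0.20, adjusted p = 6.05e-05) were lower in 4 of 4. The remaining calls were less stable: *Tgfb1* (0.53 ± 0.18, adjusted p = 0.0449) lost its call without the PBS, day 7 or day 14 library (adjusted p = 0.142, 0.168 and 0.0532), *Pdgfb* without day 3, 7 or 14 (0.125, 0.178 and 0.0531) and *Tgfb2* without day 3 or 14 (0.0910 and 0.0519). With clusters in place of gates, only days 3 and 7 had at least 20 cells of the classical monocyte cluster (2483 and 129). At day 3 this cluster also took in 605 gated IM-like cells. In that smaller edgeR fit *Tgfbr1* (−1.07 ± 0.26 by the gates) moved to −0.08 and *Igf1* to −0.77 (adjusted p = 0.818 and 0.114). It is therefore not a like-for-like check of the gates. Neutrophil-like cells differed in 6 of 9 members, 2 higher and 4 lower (53.9% of genes called). *Vegfa* was 46.6-fold higher than in AM-like cells (5.54 ± 0.64, adjusted p = 0.000353, 5 of 5) and *Pdgfa* 5.29-fold (2.40 ± 0.42, adjusted p = 0.00224, 4 of 5), with *Tgfbr1*, *Tgfbr2*, *Pdgfc* and *Igf1* lower. *Pdgfa* was low in neutrophil-like cells, at 0 to 26.3 CPM. Summed IM markers ran from 304 to 4281 CPM and summed AM markers from 2556 to 13463 CPM in neutrophil-like cells. The part of such transcripts in their values was not tested. *Igf1* there (−1.20 ± 0.42, adjusted p = 0.0373) lost its call without the PBS, day 3 or day 7 library (0.0912, 0.0951 and 0.0849), and *Tgfbr1* without day 14 or 28 (0.0925 and 0.0876). T cell-like cells differed in 7 of 10, of which 6 were lower and only the sparse *Tgfb3* higher, with 70.9% of genes called. Their largest differences were *Pdgfc* (14.8-fold lower), *Igf1* (8.83-fold lower) and *Tgfbr1* (5.62-fold lower).

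Fibroblast-like cells differed from AM-like cells in 8 of 10 members, 5 higher and 3 lower, with 52.5% of all genes tested called. *Tgfb3* showed the largest difference (8.93 ± 0.44, adjusted p = 3.23e-07 with edgeR, higher in 5 of 5 libraries), followed by *Pdgfa* (36.2-fold, 5.18 ± 0.80, adjusted p = 0.000453), *Vegfa* (23.0-fold, 4.52 ± 0.50, adjusted p = 5.44e-05) and *Tgfb2* (13.6-fold, 3.76 ± 0.47, adjusted p = 0.000121), all higher in 5 of 5. *Igf1* was 2.81-fold higher (1.49 ± 0.54, adjusted p = 0.0414, 4 of 5), but lost its call without the PBS, day 3, day 7 or day 14 library (adjusted p = 0.0993, 0.0950, 0.0505 and 0.150). *Tgfb1* was 4.92-fold lower (−2.30 ± 0.37, adjusted p = 0.000568), *Tgfbr1* 3.59-fold lower (−1.84 ± 0.22, adjusted p = 8.49e-05) and *Pdgfc* 3.15-fold lower (−1.66 ± 0.46, adjusted p = 0.0125). *Tgfbr2* did not pass (−0.06 ± 0.22, adjusted p = 0.840). Summed IM markers stood at 3214 to 4369 CPM in fibroblast-like cells, against 20264 to 45352 CPM in IM-like cells, and their part in these values was not tested.

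Endothelial-like and epithelial-like cells differed from AM-like cells in 10 of 10 members each, 5 higher and 5 lower, where 30.9% and 57.9% of all genes were called. The same 5 members, *Tgfb2*, *Tgfb3*, *Pdgfa*, *Pdgfb* and *Vegfa*, were higher in both, and *Tgfb1*, *Tgfbr1*, *Tgfbr2*, *Pdgfc* and *Igf1* lower. Summed AM markers stood at 3734 to 11436 CPM in endothelial-like cells and at 2060 to 4399 CPM in epithelial-like cells. In AM-like cells these markers stood at 29667 to 33944 CPM, and the part of such transcripts in the values was not tested. In endothelial-like cells *Vegfa* (43.7-fold, 5.45 ± 0.39, adjusted p = 1.72e-09 with edgeR) and *Pdgfb* (18.4-fold, 4.20 ± 0.41, adjusted p = 1.71e-07) led. Endothelial *Tgfb3* rests on 7 UMIs, 5 of them at day 14, and lost its call without that library (adjusted p = 0.170), and *Igf1* without day 3 or 28 (0.103 and 0.0627) and *Tgfb1* without day 28 (0.0899) did as well. In epithelial-like cells *Vegfa* (37.6-fold, 5.23 ± 0.59, adjusted p = 0.000123) and *Pdgfa* (34.3-fold, 5.10 ± 0.43, adjusted p = 2.77e-05) led among the higher members, and *Pdgfc* (8.46-fold, −3.08 ± 0.21, adjusted p = 1.02e-05) among the lower ones. All 10 epithelial calls held when any 1 library was left out. Library scaling matters for these figures: without TMM factors the median of all genes moved by 0.35 in the endothelial, 0.25 in the fibroblast, −0.59 in the neutrophil and −0.11 in the IM comparison (log2), and endothelial *Tgfb1*, *Tgfbr2* and *Igf1* then had adjusted p = 0.129, 0.0741 and 0.0840, which left 5 higher and 2 lower. Neutrophil *Tgfb1* (−0.28 ± 0.17, adjusted p = 0.183) became −0.86 (adjusted p = 0.00505).

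Within AM-like cells, a score over 13 genes of scar-associated macrophages (*Gpnmb*, *Mmp12*, *Mfge8*, *Trem2*, *Spp1*, *Cd63*, *Fabp5*, *Ctsk*, *Cd9*, *Cd68*, *Timp2*, *Lgals3* and *Syngr1*, none of them a member) was used to set scar-high cells, at or above its 75% quantile, against scar-low cells, below its 50% quantile. These are ranges of a score and not cell types, and 2281 cells lay within 0.1 of the upper boundary. Scar-high cells made up 11.98%, 20.8%, 22.9%, 30.7% and 49.0% of AM-like cells in PBS and at days 3, 7, 14 and 28. *Igf1* was at 45.8, 139, 180, 50.2 and 216 CPM in scar-high cells and at 28.9, 35.4, 37.7, 8.42 and 55.4 CPM in scar-low cells. Scar-high cells were the higher in every library, and the difference was 3.97-fold (1.99 ± 0.22, adjusted p = 9.07e-05 with edgeR). The dip at day 14 and the peak at day 28 were present in both subsets. *Pdgfa* was 5.41-fold higher (2.44 ± 0.33, adjusted p = 0.000354, 5 of 5) but low in level, at 1.19, 1.78, 5.35, 5.15 and 5.57 CPM in scar-high cells against 0, 0.692, 8.16, 2.89 and 4.54 CPM in T cell-like cells. *Vegfa* (0.78 ± 0.26, adjusted p = 0.0413) lost its call without day 3, 7 or 14 (0.0794, 0.0814 and 0.107), and *Pdgfc* (−0.30 ± 0.10, adjusted p = 0.0403) without PBS, day 3, 14 or 28 (0.152, 0.0684, 0.0635 and 0.0811). *Tgfbr2* was called (0.31 ± 0.07, adjusted p = 0.00569) although its CPM was higher in only 3 of 5 libraries, and without TMM factors it was not (adjusted p = 0.119). *Tgfb1* (0.02 ± 0.05, adjusted p = 0.828) and *Tgfbr1* (0.01 ± 0.06, adjusted p = 0.917) did not pass. Together, 5 of 9 members tested were called, 4 higher and 1 lower, against 32.1% of all genes. Without TMM factors the split was 2 higher and 3 lower, since the median of all genes moved by −0.17 (log2), *Tgfb1* (−0.15, adjusted p = 0.0336) and *Tgfbr1* (−0.16, adjusted p = 0.0397) were called lower, and *Vegfa* was not called (0.62, adjusted p = 0.0796).

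Scar-high cells were deeper, with median depths of 19827 to 29579 UMIs against 11896 to 19773 in scar-low cells. *C1qa*, a gene of the IM gate, was at 1.56, 23.8, 63.1, 67.8 and 64.4 CPM in scar-high cells. In scar-low cells it was at 2.40, 10.3, 29.1, 41.6 and 30.5 CPM, so scar-high cells were the higher in each bleomycin library. For scar-high cells this is 0.0327% to 1.53% of the IM-like level. AM-like cells had to lead in AM over IM markers, so low IM markers in them follow from the gate. The part of IM transcripts in the *Igf1* values was not tested. *Igf1* in scar-high cells was at 15.6%, 313%, 105%, 54.2% and 59.2% of the IM-like level in the same libraries, where the second value is set against day 3 IM-like cells of the monocyte cluster. The summed IM markers were at 347 to 1950 CPM in scar-high, 527 to 1209 CPM in scar-low and 20264 to 45352 CPM in IM-like cells. Without the library block, neither *Igf1* (adjusted p = 0.0853) nor *Pdgfa* (0.204) passed.

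**Figure D5:**
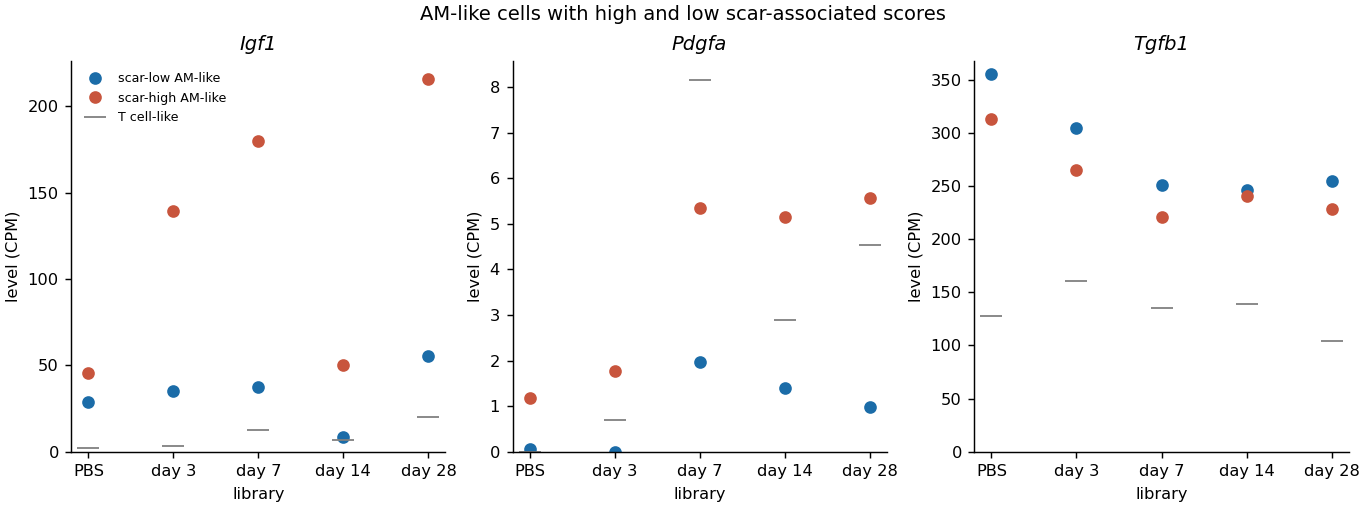
*Igf1*, *Pdgfa* and *Tgfb1* levels (CPM, linear axes from 0) in scar-high and scar-low AM-like cells of each library (points), with T cell-like cells as a dash. *Igf1* is higher in scar-high cells in all 5 libraries and above T cell-like cells, *Pdgfa* stays at or below 5.57 CPM, with T cell-like cells at 0 to 8.16 CPM, and *Tgfb1* differs little between the subsets.

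The tdT reporter is read through an added feature labelled RFP, taken here as tdT. At least 3 of its UMIs were found in 29.0%, 23.0%, 14.3%, 66.7% and 37.0% of AM-like cells, in 23.3%, 74.0%, 41.8%, 80.6% and 36.8% of IM-like cells and in 3.29% to 18.2% of T cell-like cells, which the tracer should not mark. Among other such classes the share was 1.81% to 17.2% in B cell-like, 1.35% to 20.8% in fibroblast-like and 11.4% to 42.8% in epithelial-like cells. At day 7 fibroblast-like (20.8%) and epithelial-like cells (28.6%) exceeded AM-like cells. Classical monocyte-like cells were at 84.8%, 81.1%, 15.6% and 37.0% in PBS and at days 3, 7 and 14. In the PBS library 4045 of 5549 AM-like cells held at least 1 reporter UMI. The paper, by flow cytometry, reports only a small labelled fraction of lung macrophages without injury. AM-like cells with at least 3 reporter UMIs and those with 0 were compared. These subsets are ranges of a count and do not separate cells by origin. Of 9 members tested, 1 was called, *Pdgfa* (1.65 ± 0.30, adjusted p = 0.0131 with edgeR, higher in 4 of 5 libraries), where 1.42% of all genes were called, and it lost its call without the day 7 library (adjusted p = 0.118), with Scrublet (0.158), at 1 reporter UMI or more (0.0876), and without the block or with all classes in 1 fit (1.0 each). *Igf1* did not pass (0.14 ± 0.11, adjusted p = 0.726, higher in 2 of 5), nor did *Tgfb1* (0.05 ± 0.04, adjusted p = 0.796). Reporter-high cells were deeper, with medians of 17579.5 to 26602 UMIs against 11952.5 to 16766 UMIs, and the part of depth in this comparison was not tested.

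The genes around the members were counted in 7 lists of 61 genes. The latency and activation list (latent TGF-β binding proteins, integrins, thrombospondin and proteases) had 7 of 11 tested genes higher and 0 lower in IM-like than in AM-like cells, with *Ltbp1* (6.07), *Thbs1* (5.24), *Mmp14* (4.21) and *Lrrc32* (3.40) leading on the log2 scale. Counts of this kind stand against the share of all genes called in either direction, which was 40.9% for IM-like, 52.5% for fibroblast-like, 57.9% for epithelial-like, 30.9% for endothelial-like, 32.1% for scar-high and 1.42% for reporter-high cells. The median of the list in IM-like cells was 0.79, against −0.02 over all genes. *Thbs1*, a thrombospondin that activates latent TGF-β, was at 225 to 854 CPM in classical monocyte-like cells and at 1.53 to 14.2 CPM in AM-like cells. In fibroblast-like cells 9 of 11 were higher and 2 lower, led by *Ltbp4* (10.66) at 474 to 979 CPM, and in epithelial-like cells 8 of 10 higher and 2 lower, led by *Itgb6* (8.74), an integrin subunit that activates TGF-β on epithelium, at 37.3 to 79.7 CPM. Endothelial-like cells had 6 of 10 higher and 2 lower. Scar-high AM-like cells had 3 of 6 higher and 0 lower than scar-low cells: *Mmp14* (1.80), *Ltbp3* (1.14) and *Nrros* (0.17).

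Among co-receptors and related receptors, 6 of 7 were higher and 0 lower in endothelial-like than in AM-like cells, led by *Eng* (7.69) and *Tgfbr3* (7.36), accessory receptors of TGF-β, and *Acvrl1* (3.69). IM-like cells had 3 of 7 higher and 2 lower. SMADs and their regulators split, with 4 higher and 3 lower of 9 in IM-like cells and 3 higher and 2 lower in fibroblast-like cells. Of 6 TGF-β responsive genes tested, 2 were higher and 1 lower in both IM-like and fibroblast-like cells, 0 higher and 4 lower in epithelial-like cells, and 1 in each direction in scar-high cells.

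All 3 genes of the PDGF list could be tested in fibroblast-like cells alone. *Pdgfra* (8.35) and *Pdgfrb* (10.52), the PDGF receptors, were higher in fibroblast-like than in AM-like cells (log2 differences), at 72.6 to 290 CPM and 46.6 to 136 CPM, and with *Pdgfd* (10.71) all 3 genes of the PDGF list were. Of the IGF list, 10 of 12 were higher and 2 lower in fibroblast-like cells, with *Igfbp6* (11.21), *Igfbp7* (10.73), *Igfbp5* (10.23) and *Igfbp4* (9.35), binding proteins that hold IGF outside cells, in front. In IM-like cells 3 of 9 were higher and 1 lower: *Igf2r* (3.74), *Igf1r* (2.00) and *Igfbp6* (1.01) against *Insr* (−1.88). *Igf1r*, the receptor of IGF1, was at 129 to 414 CPM in neutrophil-like cells. Of the VEGF list, 6 of 10 were higher and 1 lower in endothelial-like cells, with *Vegfc* (9.88), *Kdr* (9.66) and *Flt4* (8.96) leading and the main VEGFA receptor *Kdr* at 118 to 896 CPM. *Flt1*, a VEGFA receptor and decoy, was present in AM-like cells at 91.7 to 210 CPM and was lower in IM-like cells (−3.05), where the VEGF list had 2 of 9 higher and 3 lower. In scar-high AM-like cells the IGF list had 1 of 8 higher (*Igf2r*, 2.13) and 3 lower (*Igf1r* −0.61, *Irs2* −0.57 and *Insr* −0.34), and the VEGF list 3 of 8 higher and 1 lower. The PDGF list had 1 gene tested in scar-high cells, and it was called higher (1.23). In reporter-high cells the latency list had 2 of 6 higher (*Thbs1* 1.33 and *Mmp14* 1.07), the SMAD, responsive and VEGF lists 1 each, and the other lists 0 by edgeR.

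The genes whose pattern over the 75 class and library sums was most like that of a member, by Pearson's r of log2(CPM + 10), were named for each. The sums share libraries and depths, so r is a description. *Tgfb3* was followed by *Col16a1*, *Boc* and *Pdzrn3* (each 0.94), *Tgfb2* by *Gata6* (0.92), *Cald1* (0.90) and *Cyr61* (0.88), and *Igf1* by *Colec12* (0.86), *Dtx4* (0.82) and *Ahnak2* (0.81). *Tgfbr1* was followed by *Adam17*, *Mfsd12* and *Lipa* (0.86 each), *Pdgfc* by *Prune2*, *Zranb3* and *Mertk* (0.84 each), *Tgfb1* by *Fermt3* (0.83), *Pitpna* (0.80) and *Fam49b* (0.79), and *Tgfbr2* by *Man2a1* (0.80), *Mr1* (0.77) and *Ski* (0.76). Likeness was weakest for *Pdgfa*, with *Ecm1* and *Timp2* (0.78 each) and *Slc6a8* (0.76), for *Vegfa*, with *Mtus1* (0.77), *Agrn* and *Ckap4* (0.73 each), and for *Pdgfb*, with *Ednrb* and *Afap1l1* (0.71 each) and *Ccdc184* (0.70). *Timp2* is also 1 of the 13 genes of the scar-associated score.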

How the data were processed

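The deposited files hold raw UMI counts per gene and barcode of 5 10x Genomics 3′ libraries. The authors made these counts with Cell Ranger 6.0.0 against mm10, per the submitters' processing notes, without further normalization. Barcodes entered when they held between 300 and 8000 genes and between 800 and 60000 UMIs, with less than 15% of UMIs from mitochondrial genes. Cells were gated by mean standardized scores (values limited to 5) over 250 listed markers (2 of them not among the features), with a score of at least 0.4 and a lead of at least 0.25, which gave 35794 gated cells, of which 3600 lay within 0.1 of the lead. Doublets were treated by removing cells that scored at least 0.8 for 2 lineages (2693 cells), and 6285 cells stayed unassigned. The settings of the gates were chosen after looking at the cells. The members, markers and lists were chosen with earlier results of these data known. Of the gated cells, 95.4% of AM-like, 77.0% of IM-like, 61.4% of classical monocyte-like and 94.4% of fibroblast-like cells lay in a Leiden cluster named alike.

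Counts were summed per class and library (at least 20 cells) and tested with edgeR 4.0.16 in R 4.3.3 (quasi-likelihood test, TMM, library as a block), with Benjamini–Hochberg adjustment over all genes tested and a threshold of 0.05. The test was tried on simulated data. Ratios to PBS have exact binomial intervals of 95%. Libraries were labelled by treatment and day, 1 each. With the library as a block, p-values measure how alike a class difference was over the 5 libraries. For classical monocyte-like and epithelial-like cells there were 4 libraries. All 10 members are named in every class, and of each pathway list at most 4 genes, those with the largest differences past the threshold. The 3 most alike genes reach 50 CPM in at least 1 sum. Alternatives were DESeq2 1.42.0, Scrublet in scanpy 1.11.5 (3822 cells removed), 41 Leiden clusters at resolution 1.5 in place of gates, a fit of all classes together, fits without filter, block or TMM, a mitochondrial limit of 10%, stricter gates and other boundaries of the scar and reporter subsets. Without TMM and stricter gates were added after seeing the data. Python 3.11.15, numpy 2.4.6, pandas 2.3.3, scipy 1.17.1 and matplotlib 3.10.9 were used.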

Additional observations from a re-analysis of the deposited data

Results flagged for a closer look

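At days 3 and 7 the *Igf1* ratio to PBS pointed in opposite directions in the 2 gated macrophage classes. At day 3 it was 2.01 in AM-like and 0.152 in IM-like cells, and at day 7 it was 2.56 in AM-like and 0.588 in IM-like cells. At day 14 both lay below PBS (0.733 and 0.316) and at day 28 both above it (4.53 and 1.24). The difference between the classes was not tested, since each time point has 1 library. With Leiden clusters in place of gates the IM ratio was 1.17 at day 3 and 1.66 at day 7, so the opposite direction was not seen. Of the gated IM-like cells at day 3, 90.0% lay in the classical monocyte cluster, and the gated PBS level rests on 43 cells and 158 UMIs. The IM clusters held 38 of those 43 cells, but only 101 *Igf1* UMIs in all their PBS cells.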

How the results depend on the processing

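Of 1182 log2 fold changes of members recomputed under an alternative, 1055 kept their direction and side of the threshold, 67 lost and 14 gained a call, and 46 turned direction. Without the library block 3431 genes were called for IM-like, 180 for scar-high (0 members) and 1 for reporter-high cells (0 members). With all classes in 1 fit the counts were 5745 for endothelial-like, 201 for scar-high (2 members) and 1 for reporter-high cells (0 members). Scrublet left 3 scar members and 64 reporter genes (0 members), 1 reporter UMI or more 66 genes (0 members), DESeq2 103 and no filter 503. Leaving out 1 library gave 3 to 4 scar members, 84 to 193 reporter genes and 0 to 1 reporter members, with 92 genes and 0 members without day 7 and 84 genes without day 28. The cause was not tested for any of these. By the mean over cells, 0 members passed 2-fold in AM-like cells at day 3.

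The values that turned direction belong mostly to estimates near 0. For IM-like over AM-like cells, *Tgfb1* (−0.03) became 0.0334 with DESeq2, 0.00734 without the filter, 0.0311 without the block, 0.0451 with Scrublet, 0.0288 at the 10% mitochondrial limit and −0.0350 to 0.0543 without 1 library. With Leiden clusters *Tgfbr1* there became −0.182, *Pdgfc* −0.183, neutrophil *Pdgfb* 0.0390 and T cell *Pdgfb* 0.530. Without 1 library neutrophil *Pdgfb* ranged from −0.557 to 0.206, T cell *Pdgfa* from −0.0575 to 0.484, T cell *Pdgfb* from −0.279 to 0.0742 and fibroblast *Tgfbr2* from −0.274 to 0.0783, the last also 0.0691 (DESeq2), 0.0520 (no block), 0.154 (Scrublet) and 0.188 (no TMM). In scar-high cells *Tgfb1* became −0.00613 (upper 10%), −0.150 (no TMM) and −0.0118 to 0.0319 (without 1 library). *Tgfbr1* became −0.0167 (all classes), −0.000803 (Scrublet), −0.0891 (upper 10%), −0.00542 (stricter gates), −0.158 (no TMM) and −0.0411 to 0.0422 (without 1 library), and *Pdgfb* −0.00523 (no TMM) and −0.00296 to 0.529 (without 1 library). In reporter-high cells *Tgfb2* became 0.183 (no block), 0.0453 (all classes) and −0.609 to 0.277 (without 1 library), *Tgfbr2* −0.00361 (no block), −0.0105 (mitochondrial limit), −0.0233 (no TMM) and −0.0486 to 0.0254 (without 1 library), and *Pdgfb* 0.0208 (no block), 0.164 (all classes) and −0.120 to 0.124 (without 1 library). *Igf1* there ranged from −0.0191 to 0.236 without 1 library.

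No paired analysis was possible because each time point has 1 library, so the time points could not be paired, while classes of the same library were compared with the library as a block. Depth limits the structural classes most: 3 UMIs in endothelial-like cells of the PBS library are 35.9 CPM. The leading class of 8 of 10 members was the same with Leiden clusters, where *Tgfbr1* and *Pdgfc* were led by AM-like cells. It was the same for 9 with Scrublet, where *Pdgfa* was led by epithelial-like cells, and for 8 by the mean over cells, where *Pdgfa* was led by epithelial-like and *Tgfbr1* by IM-like cells.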
